A study of Caenorhabditis elegans with 83 samples.

Results

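The genes described here are 5 numbered collagen genes of Caenorhabditis elegans, col-141 (T15B7.5), col-142 (T15B7.4), col-80 (C09G5.5), col-118 (T11B7.3) and col-131 (C39E9.3). They were chosen by name, with their RNA changes already known, out of 18607 genes in either of the RNA tables and out of 154 genes there that are named col and a number. All 5 had a row and an adjusted p in both RNA tables. In the SMC-3 comparison 2812 genes had no adjusted p, while all 18308 genes of the WAPL-1 comparison had one. The comparisons thus tested unlike sets of genes. Their fold changes and p-values in the RNA tables are therefore a description, and they are no test of the choice.

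The worm cuticle is a collagen coat that the epidermis secretes and replaces at each moult. Its collagens are small proteins of glycine-rich repeats that assemble as trimers and are cross-linked in the extracellular matrix, and their genes are transcribed in waves within each larval stage. Cohesin is a ring-shaped complex that holds sister chromatids together and forms chromatin loops. SMC-3 is a core part of the ring, PQN-85 is the worm NIPBL-type protein that loads it, and WAPL-1 releases it from chromatin.

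Whole L2/L3 worms were used, grown from starved L1 larvae for 24 h at 22 °C. Auxin-inducible degradation removes a protein that carries a degron tag once auxin is added, here at 1 mM in the plates. All 3 strains with RNA were given auxin for 4 h according to the sample titles, while the treatment text of the same samples speaks of 1 h. The control strain, CA1200, also received auxin; SMC-3 was depleted in strain JK05 and WAPL-1 in strain JK06. As background, CA1200 is known as a strain that expresses the TIR1 auxin receptor from the eft-3 promoter in somatic cells. For JK05 and JK06 the sources used here give neither alleles nor promoters. ChIP-seq of SMC-3 and PQN-85 was done on CA1200, JK05 and JK06 after 1 h of auxin. Strain HW04, for which the sources used here name no degron target, gave 2 libraries without auxin and 2 after 1 h of it for ChIP-seq of SMC-3, PQN-85 and the histone mark H4K20me1.

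Each strain had 2 RNA-seq libraries, and the RNA values are the authors' comparison of each depletion strain with CA1200, so no value of a single library can be shown and the depth is unknown. The series is described as using biological replicates. The depletion strains were not compared with their own worms without auxin, so an effect of depletion and one of the strain itself cannot be told apart. Both comparisons used the same control: over 9904 genes whose mean normalized count reached 100, the CA1200 level worked out from each table differed by a constant 0.19 on the log2 scale, with an SD of 0.0021 across genes. The genes of the targeted proteins were not called at the RNA level, which is no measure of the protein. The log2 fold change of smc-3 was −0.23 ± 0.26 (standard error, SE) in the authors' deposited table of SMC-3 depletion. That of wapl-1 was 0.22 ± 0.41 in the authors' deposited table of WAPL-1 depletion.

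After SMC-3 depletion the RNA of col-141, col-142 and col-80 fell about 4- to 6-fold, that of col-131 rose and that of col-118 did not pass the test. After WAPL-1 depletion all 5 fold changes lay below 0, beside 44.2% of all genes tested, and none passed the test. A gene is called here when its adjusted p in the authors' DESeq2 fit across all genes is under 0.05. By that rule 3 of the 5 genes were called lower after SMC-3 depletion, beside 0.464% of 15316 genes tested, and 1 of the 5 was called higher, beside 0.222%. After WAPL-1 depletion 0 of 18308 genes (0%) were called in either direction, and the smallest adjusted p in the authors' deposited table was 0.793. Unadjusted p-values under 0.05 in the authors' deposited table of WAPL-1 depletion were held by 3 of the 5 genes, all of them lower, beside 0.377% of all genes.

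Mean levels per strain were worked out from the deposited mean normalized count and fold change. They are counts and not levels per length, so they are compared between strains and not between genes, and the JK06 level is put on the scale of the SMC-3 table by the constant offset between the tables. The level of col-141 was 280 in CA1200, 46.4 in JK05 and 109 in JK06. The gene was thus highest in the control and lowest after SMC-3 depletion. Its log2 fold change was −2.59 ± 0.71 (SE) with an adjusted p of 0.0439 in the authors' deposited table of SMC-3 depletion, a level 6.04-fold lower. It was −1.37 ± 0.85 in the authors' deposited table of WAPL-1 depletion, with an unadjusted p of 0.107 and an adjusted p of 1.00. With the smallest mean count of the 3 genes called lower, col-141 also had the largest SE of them.

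The level of col-142 was 1968 in CA1200, 396 in JK05 and 729 in JK06. The order of the strains was that of col-141, its neighbour on chromosome V. Its log2 fold change after SMC-3 depletion was, in the authors' deposited table, −2.31 ± 0.47 (adjusted p = 5.58e-04), which is 4.97-fold lower. In that of WAPL-1 depletion, also the authors' deposited table, it was −1.44 ± 0.59 (unadjusted p = 0.0144, adjusted p = 1.00).

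The level of col-80 was 2858 in CA1200, 700.2 in JK05 and 741 in JK06. Both depletion strains lay close to each other and below the control. The authors' deposited table of SMC-3 depletion gave it a log2 fold change of −2.03 ± 0.37 with an adjusted p of 3.33e-05, which is 4.08-fold lower. The authors' deposited table of WAPL-1 depletion gave −1.95 ± 0.63, with an unadjusted p of 0.00185 and an adjusted p of 1.00. The estimate in the second comparison was thus near that of the first, with a larger SE.

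The level of col-118 was 2945 in CA1200, 3138 in JK05 and 1138 in JK06. The levels of CA1200 and JK05 lay close together and that of JK06 was lower, with neither comparison passing the test. Its log2 fold change was 0.09 ± 0.37 in the authors' deposited table of SMC-3 depletion (unadjusted p = 0.805, adjusted p = 1.00). It was −1.38 ± 0.51 in the authors' deposited table of WAPL-1 depletion (unadjusted p = 0.00716, adjusted p = 1.00).

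The level of col-131 was 192 in CA1200, 496 in JK05 and 102 in JK06, so that it lay above the control in one depletion strain and below it in the other. The rise after SMC-3 depletion was 2.58-fold, with a log2 fold change of 1.37 ± 0.30 and an adjusted p of 0.00255 in the authors' deposited table. After WAPL-1 depletion its log2 fold change in the authors' deposited table was −0.91 ± 0.50 (unadjusted p = 0.0685, adjusted p = 1.00). Whether the effects of the depletions on these genes differ was not tested, since both comparisons rest on the same control libraries and no value per library was used. In whole worms, fewer cells that express a gene and less RNA per cell cannot be told apart.

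**Figure D1:**
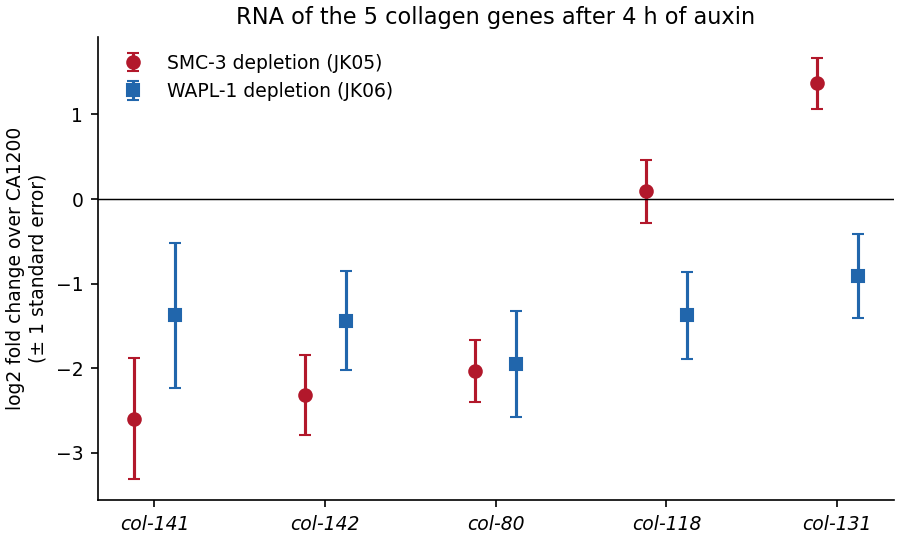
The log2 fold change over CA1200 (y axis) of each of the 5 genes (x axis) is shown for SMC-3 depletion (circles) and WAPL-1 depletion (squares), with bars of 1 SE, from the authors' deposited tables of 2 libraries per strain. For col-80 both values lie near −2, while col-118 and col-131 lie at 0.09 and 1.37 in SMC-3 depletion and at −1.38 and −0.91 in WAPL-1 depletion.

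**Figure D2:**
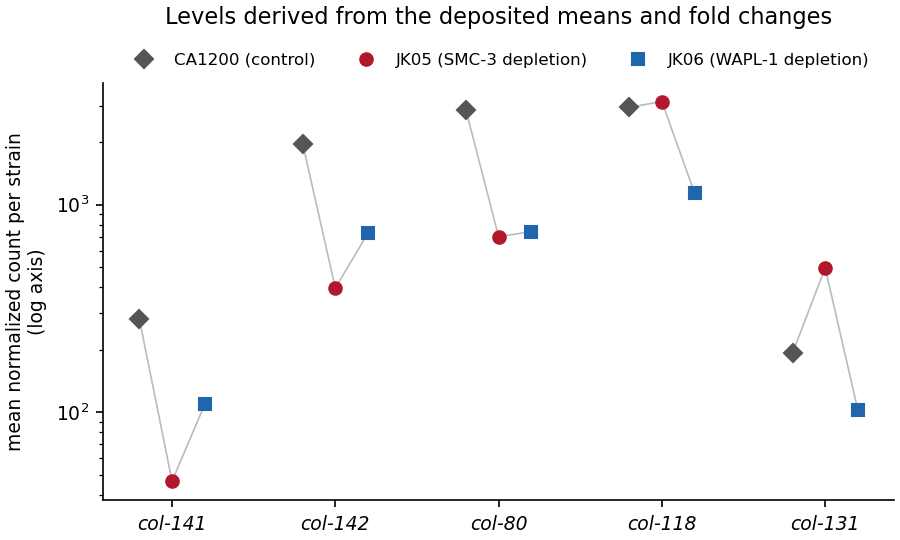
The mean normalized count per strain (y axis, log scale) is shown for each gene (x axis) in CA1200 (diamonds), JK05 (circles) and JK06 (squares), worked out from the deposited mean and fold change and set on the scale of the SMC-3 table. The points are derived values for 2 libraries per strain, not means of library values, and have no error of their own. Lines join the strains of a gene. JK05 is the lowest strain for col-141, col-142 and col-80 but the highest for col-118 and col-131.

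The 5 genes lie at 4 places in the genome. In the coordinates of the RNA tables, for which the sources used here give no build, col-141 spans 6829686 to 6830725 and col-142 spans 6831145 to 6832237 of chromosome V, both on the plus strand and 420 bp apart. The gene col-80 spans 10707143 to 10708227 of chromosome II on the plus strand. Both others are on chromosome IV, col-118 from 8848168 to 8849663 on the plus strand and col-131 from 13065704 to 13067264 on the minus strand. The spans differ from the RefSeq gene models on WBcel235 by 18 to 58 bp at their starts and by 10 to 60 bp at their ends. How alike the sequences of col-141 and col-142 are was not analysed here, and reads that collagen copies may share are uncertain for each of the 5 genes. All of col-80 lies inside the span of dph-2 (C09G5.2, chromosome II, 10702173 to 10714240), a gene on the opposite strand. The sources used here do not say whether counting used strand, so reads of col-80 and dph-2 are uncertain where they overlap. The log2 fold change of dph-2 was 0.04 ± 0.33 in the authors' deposited table of SMC-3 depletion and 0.17 ± 0.45 in that of WAPL-1 depletion.

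Among genes within 50 kb of the 5 collagen genes, col-141 and col-142, each in the window of the other, were the ones called. Within 50 kb of col-142, 21 genes were tested after SMC-3 depletion, col-141 was the 1 called, and the median log2 fold change was 0.19 in the authors' deposited table. Within 50 kb of col-80, 0 of 16 genes were called and the median in the authors' deposited table was −0.11. Around col-118 it was 0 of 23 with a median of 0.06, and around col-131 it was 0 of 20 with a median of −0.16, again from the authors' deposited table. Of all genes tested, 0.464% were called lower and 0.222% higher, so counts of 0 in windows this small are near that share. The window of col-118 held 2 col genes that were not called. They were col-117 (T28C6.4) at −1.20 ± 0.40 and col-3 (T28C6.6) at −1.16 ± 0.49 in the authors' deposited table. In WAPL-1 depletion no gene in any of these windows was called, and the medians in the authors' deposited table were 0.06, −0.03, 0.24 and −0.10 in the same order.

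Upstream of col-80, at 1182 bp, lies another collagen gene, col-39 (C09G5.4), whose log2 fold change was −1.34 ± 0.48 in the authors' deposited table of SMC-3 depletion (adjusted p = 0.250) and −0.69 ± 0.65 in that of WAPL-1 depletion. Next upstream is col-79 (C09G5.3), at −0.46 ± 0.49 and −1.19 ± 0.73 in the same pair of the authors' deposited tables. On the other side is bli-1, a collagen needed for the adult cuticle struts, which had a mean normalized count of only 3.05 in the authors' deposited table of SMC-3 depletion. Beyond col-142, at 3380 bp, col-143 (T15B7.3) had a mean normalized count of 10.9 and a log2 fold change of −0.03 ± 0.99 in the authors' deposited table of SMC-3 depletion. The nearest genes on either side of the pair, T15B7.14 downstream of col-142 and T15B7.7 upstream of col-141, each had a mean normalized count under 1 in those of the authors' deposited tables that hold them. The neighbours of col-118 were T11B7.2 and alp-1, which encodes a PDZ and LIM domain protein of muscle. T11B7.2 was at 0.71 ± 0.57 and alp-1 at −0.40 ± 0.25 in the authors' deposited table of SMC-3 depletion. They were at 1.44 ± 1.05 and −0.04 ± 0.39 in the authors' deposited table of WAPL-1 depletion.

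On both sides of col-131 lie genes of the SCP-like extracellular protein family, scl-5 and scl-6. Neither was called, and both had fold changes of the opposite sign to col-131 in the authors' deposited table of SMC-3 depletion, at −1.18 ± 0.69 for scl-5 and −1.24 ± 0.96 for scl-6. After WAPL-1 depletion the authors' deposited table had them at −0.60 ± 1.06 and 0.23 ± 1.34. Few genes were called after SMC-3 depletion, 0.464% of all genes tested as lower and 0.222% as higher. Past scl-5, at 5033 bp from col-131, scl-3 was just outside the threshold in the authors' deposited table of SMC-3 depletion. It was at −1.41 ± 0.40 with an adjusted p of 0.0540. The next gene, scl-2 at 6636 bp, was at 0.15 ± 0.47 there.

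**Figure D3:**
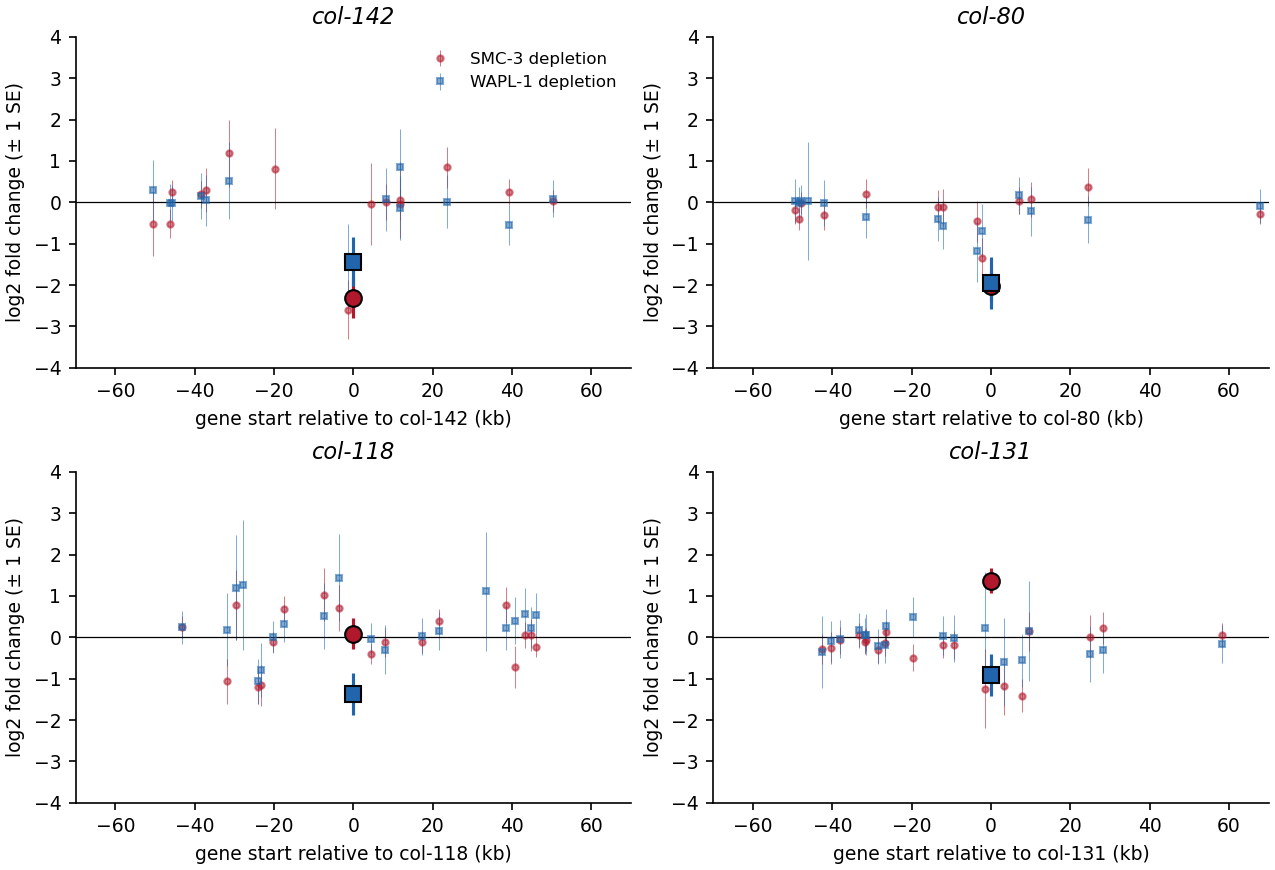
Each panel shows the log2 fold changes (y axis, bars of 1 SE) of genes that reached a mean normalized count of 10 and have an adjusted p, within 50 kb of the collagen gene named above it, against the distance of their starts from its start (x axis, kb, along the chromosome). Large outlined symbols mark the named gene, circles SMC-3 depletion and squares WAPL-1 depletion; beside col-142 the low point is col-141 at −2.59, and the low points just left of col-80 are col-39 and col-79.

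The median fold change of the numbered collagen genes lay below that of all genes in both comparisons, which share their control. After SMC-3 depletion 119 of the genes named col and a number were tested, of which 6 (5.04%) were called lower and 1 (0.84%) higher, beside 0.464% and 0.222% of all genes. Their median log2 fold change was −0.74 in the authors' deposited table, beside −0.01 over all 15316 genes tested. Of the 119, 99 (83.2%) lay below 0, beside 51.4% of all genes tested. Without the 5 genes described here the median was also −0.74, over 114 genes of the authors' deposited table. After WAPL-1 depletion 0 of 152 were called, and the median was −0.51 beside 0.05 over all genes of the authors' deposited table. Of the 152, 107 (70.4%) lay below 0, beside 44.2% of all genes tested. Unadjusted p-values under 0.05 were held by 33 of the 119 (27.7%) on the lower side in the authors' deposited table of SMC-3 depletion, beside 4.33% of all genes. In the authors' deposited table of WAPL-1 depletion they were held by 9 of the 152 (5.92%), beside 0.377%. Where the mean normalized count was 1000 or more, the medians were −0.88 for 42 col genes and −0.05 for all genes in the authors' deposited table of SMC-3 depletion. The corresponding medians in the authors' deposited table of WAPL-1 depletion were −0.76 for 43 col genes and 0.01 for all genes. Of the 5 genes, col-131 was thus on the side of the minority of the family after SMC-3 depletion. The value of col-118 there, 0.09 ± 0.37, lay within 1 SE of 0 and leaves its side undetermined. Both had the sign of the majority after WAPL-1 depletion, where neither was called.

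Besides the genes described here, 3 further col genes were called, all lower after SMC-3 depletion. According to the authors' deposited table they were col-169 (T10E10.5) at −2.27 ± 0.56 with an adjusted p of 0.0119, col-159 (F57B1.3) at −2.09 ± 0.53 with 0.0205, and col-93 (W05B2.5) at −1.60 ± 0.43 with 0.0357. The WAPL-1 comparison of the authors' deposited table placed the same genes at −0.73 ± 0.73, −1.30 ± 0.67 and −1.16 ± 0.63. The col genes just outside the threshold in the authors' deposited table were col-150 (B0024.2), at −1.34 ± 0.38 with an adjusted p of 0.0542, and col-168 (T10E10.1), next to col-169, at −1.69 ± 0.48 with 0.0543, while col-141 was just inside it.

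All 6 col genes called lower after SMC-3 depletion had another col gene within 5000 bp. Of the tested col genes, 41 had such a neighbour and 78 had none, and their median log2 fold changes were −1.20 and −0.45 in the authors' deposited table of SMC-3 depletion. The 1 called higher, col-131, was among those without a col neighbour, as was col-118. In the authors' deposited table of WAPL-1 depletion the medians were −0.79 over 49 genes with a col neighbour and −0.33 over 103 without. The difference between these groups was not tested, and it was looked at after the values were known. Copies in a cluster may share reads, and their part in these values was not tested.

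**Figure D4:**
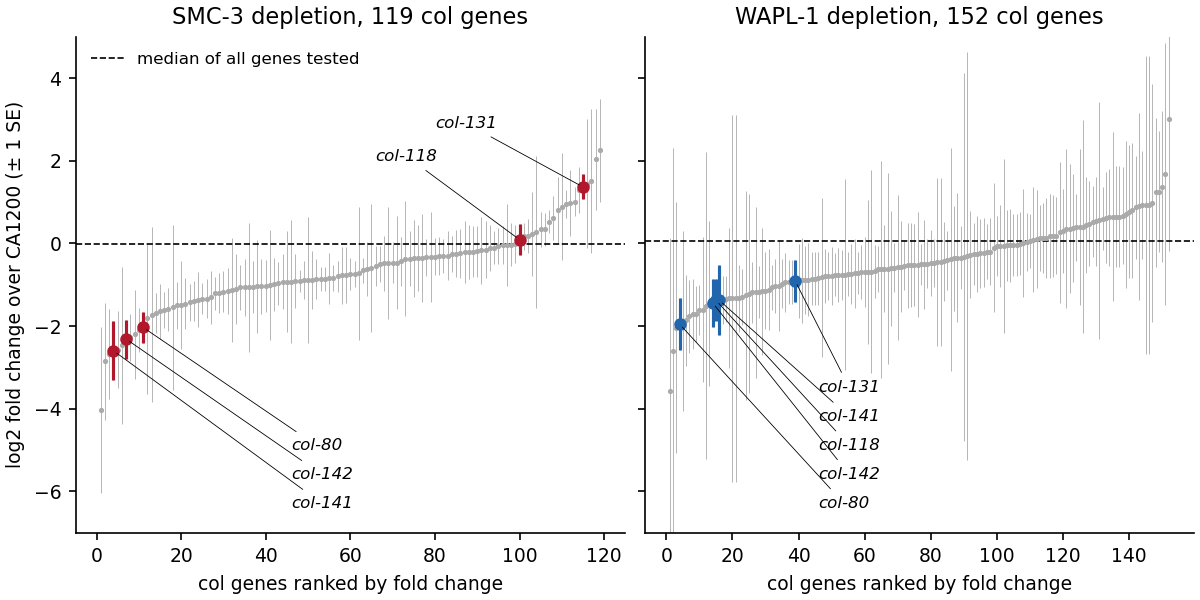
The col genes with an adjusted p are ranked by log2 fold change over CA1200 (x axis, rank; y axis, log2 fold change with bars of 1 SE, cut at the limits of the axis) for SMC-3 depletion, 119 genes, and WAPL-1 depletion, 152 genes. Coloured points are the 5 genes described here and the dashed line is the median of all genes tested; 99 and 107 col genes lie below 0.

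The genes most like col-141 across both depletions were found by the Euclidean distance over the pair of log2 fold changes, among 9903 other genes whose mean normalized count reached 100 in both tables. They were nhr-74 at 0.22, F46F2.3 at 0.24 and col-142 at 0.29 on the log2 scale. The genes most like col-131 were ZK1025.3 at 0.34, D2023.1 at 0.37 and bah-2 at 0.41. The likeness rests on 2 comparisons that share the control.

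In the other lists of the cuticle pathway no gene was called in either depletion, and their medians are given as a description. The cuticle collagens with other names, such as the dpy, rol, sqt and bli genes that shape the body, had a median log2 fold change of 0.18 over 19 tested genes in the authors' deposited table of SMC-3 depletion. In that of WAPL-1 depletion, also the authors' deposited table, the median was −0.51 over 20 genes, with 17 below 0. The gene with the smallest p of this list was sqt-2 (0.85) in the authors' deposited table of SMC-3 depletion and sqt-1 (−0.55) in that of WAPL-1 depletion. The 13 moulting effectors had a median of 0.40, with 1 below 0, in the authors' deposited table of SMC-3 depletion and of −0.31, with 11 below 0, in that of WAPL-1 depletion. Of these, mlt-9 was at 0.74 in the authors' deposited table of SMC-3 depletion, and mlt-10 was at −1.36 ± 0.50 in that of WAPL-1 depletion. The 14 regulators of epidermis and moulting had medians of 0.27 (1 below 0) and −0.31 (12 below 0) in the same order of the authors' deposited tables. The smallest p among them belonged to lin-46 (0.98) and to lin-42, the worm period homologue (−0.68), in the authors' deposited tables of SMC-3 and WAPL-1 depletion. Genes of collagen modification and processing, among them prolyl hydroxylases and cross-linking enzymes, had medians of 0.02 over 14 genes and 0.08 over 15 in the authors' deposited tables. The 4 collagens outside the cuticle had medians of −0.36 and −0.29 there, all below 0 in both of the authors' deposited tables. The genes of cohesin, its loader and its release factor had medians of −0.01 and 0.07 over 7 genes in the authors' deposited tables.

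None of the cell type markers was called either. For SMC-3 depletion the authors' deposited table gave medians of −0.34 for 4 markers of the larval epidermis, −0.38 for 3 of the seam, −0.43 for 5 of the body muscle, −0.32 for 6 of the intestine and −0.61 for 5 of the germline. The authors' deposited table had 4 pharynx markers at 0.01 and 6 neuron markers at −0.02. For WAPL-1 depletion the authors' deposited table gave medians of −0.63 for the larval epidermis, −0.80 for the seam, −0.12 for muscle, 0.02 for the intestine and −0.01 for the germline. There the pharynx was at 0.35 and neurons at −0.08 in the authors' deposited table. The summed level of the 4 larval epidermis markers, of which col-10 and col-12 are col genes, was 25516 in CA1200 and 15250 in JK05. On the scale of WAPL-1 depletion it was 29183 in CA1200 and 16653 in JK06. In the authors' deposited table of SMC-3 depletion 2 of the 4 lay below 0, col-10 at −0.87 and col-12 at −1.50. The others, dpy-7 and wrt-2, lay above 0, the higher at 0.45. All 4 lay below 0 in the authors' deposited table of WAPL-1 depletion. The summed level of the 3 seam markers was 3074 in CA1200 and 2375 in JK05, or 3512 and 1758 in CA1200 and JK06. Most of it was grd-10, with mean normalized counts of 2542 and 2445 in the SMC-3 and WAPL-1 comparisons. Of the 3, 2 lay below 0 in each comparison, while nhr-73 lay at 0.44 and 0.40 in the authors' deposited tables. The summed level of the 5 germline markers was 4154 in CA1200 and 2721 in JK05, or 4735 and 4827 in CA1200 and JK06. Collagens of the adult epidermis (col-7, col-19, col-62 and col-63) were close to 0. Of these 4, only col-62 was tested after SMC-3 depletion, with a level of 9.91 in CA1200 and 4.57 in JK05. All 4 were tested after WAPL-1 depletion, with a summed level of 16.8 in CA1200 and 10.6 in JK06. Yolk genes of the adult intestine were likewise low. The 2 tested after SMC-3 depletion had summed levels of 36.2 in CA1200 and 22.0 in JK05. The 5 tested after WAPL-1 depletion had summed levels of 46.4 in CA1200 and 27.6 in JK06. Medians of the adult collagens were −1.12 for the 1 tested of 4 and −1.03 for 4, and those of the yolk genes −0.69 for 2 tested and 0.00061 for 5, in the authors' deposited tables of SMC-3 and WAPL-1 depletion. The part of stage or tissue composition in the changes of the 5 collagen genes was not tested.

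Cohesin and loader peaks near the genes were read from 21 peak lists of the authors. Each antibody had 1 combined set per strain for CA1200, JK05 and JK06, which leaves no replicate error, and the combined JK06 sets, deposited under other samples, were recognised from the libraries that their peak names list. For the 4 SMC-3 lists of HW04 the peak names give auxin where the label gives none and the reverse, and the labels were kept. A peak counts as near a gene within 1000 bp of its span. The build of the peak lists was ce10 for part of the samples and is not stated for the others, and any shift between that build and the gene coordinates was not tested.

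No SMC-3 peak of a combined set lay near any of the 5 genes. This was 0 of 5 in CA1200, where 29.6% of 18607 genes had one, 0 of 5 in JK05 beside 1.94%, and 0 of 5 in JK06 beside 34.4%. Of the 154 col genes, 23.4% had an SMC-3 peak near in CA1200, beside the 29.6% of all genes. Among all genes with a mean normalized count of 1000 or more the share was 57.8%. The share among col genes with such counts was not worked out. In CA1200 the nearest SMC-3 peak was 32.4 kb from col-141, 33.8 kb from col-142, 35.2 kb from col-80, 16.3 kb from col-118 and 8.34 kb from col-131. In JK06 these distances were 7510, 5998, 5926, 16382 and 21612 bp in the same order. Around col-141, col-142 and col-80 the nearest peak was thus closer in JK06 than in CA1200, and farther for col-131. This was not particular to JK06. In the SMC-3 lists of HW04 the nearest peak to col-141 was at 7871 and 7835 bp without auxin. With auxin it was at 7474 and 7512 bp. For col-80 it was at 5907 and 30045 bp without auxin and at 35451 and 5917 bp with it. The CA1200 peak nearest to col-131 was among the lower ones, with 5% of its list below its score. The JK06 peak nearest to col-80, from 10714153 to 10714629, lay over the start of dph-2. In JK05, whose set held 361 peaks against 6290 in CA1200, the distances ran from 56.5 kb for col-142 to 293 kb for col-131.

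Of the 5 genes, col-80 was the one with PQN-85 peaks near it. In CA1200 none of the 5 had a PQN-85 peak near, beside 24.8% of all genes, and the nearest lay 35.2 kb from col-80. In JK05 the count was 1 of 5, beside 24.2%, and in JK06 it was 1 of 5, beside 29.2%. The JK05 peak near col-80 lay on chromosome II from 10705962 to 10706361, 782 bp from the gene, with its summit 1021 bp upstream of the start. Its score, which is 10 times the −log10 q, was 104 and its fold enrichment 2.43, both the authors' values, and 6% of the peaks in that list had a lower score. The JK06 peak lay from 10705867 to 10706448, 695 bp from the gene, with a summit 897 bp upstream, a score of 292 and a fold enrichment of 3.13. These peaks lie between col-39 and col-80, at or over the end of col-39, and also inside the span of dph-2 on the opposite strand. A further JK06 peak, with a score of 203, lay over the start of col-39.

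A peak at the same place was also looked up in the lists of single or averaged libraries. In the single SMC-3 lists of JK06 it was present in replicate 3, with a score of 81 and a distance of 760 bp, and not in replicate 4. Near peaks were held by 41.6% of all genes in the former list and by 34.6% in the latter. The PQN-85 list of JK06 called on averaged libraries held the peak of the combined set with the same limits, summit and score. It is thus the same call and no separate observation. Near peaks were held by 42.5% of genes in that list. In HW04 without auxin, PQN-85 peaks lay 731 and 685 bp from col-80 in replicates 1 and 2, with scores of 67 and 308, beside 26.7% and 43.7% of genes. With auxin, neither HW04 replicate had one, beside 18% and 5.08% of genes. The lists without auxin numbered 6553 and 12367 peaks and those with it 4070 and 1296, so the number of peaks called moved with the presence of the peak near col-80, and its part was not tested. The SMC-3 lists of HW04 had no peak near any of the 5 genes, beside 22.9% and 21.9% of genes without auxin and 31% and 34.1% with it. With 2 libraries against 2 no exact test could pass a threshold of 0.05.

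For the other 4 genes no list held a peak within 1000 bp. Over the 21 lists, the distance to the nearest peak ran from 5.85 to 58.0 kb for col-141, from 5.96 to 56.5 kb for col-142, from 1.84 to 197 kb for col-118 and from 7.94 to 293 kb for col-131. The closest to col-118 was a PQN-85 peak in replicate 2 of HW04 without auxin. The mark H4K20me1 had no peak within 1000 bp of any of the 5 genes in its 4 HW04 lists, where 16.2% to 18.3% of all genes had one. Its nearest peak lay between 47.8 and 49.4 kb from col-141 and col-142 in all 4 lists, and as near as 4.25 kb from col-118 in 1 of them. Among the other col genes called lower after SMC-3 depletion, col-93 had an SMC-3 peak near in CA1200, at 909 bp, while col-159 and col-169 were 2.84 and 32.1 kb from one.

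**Figure D5:**
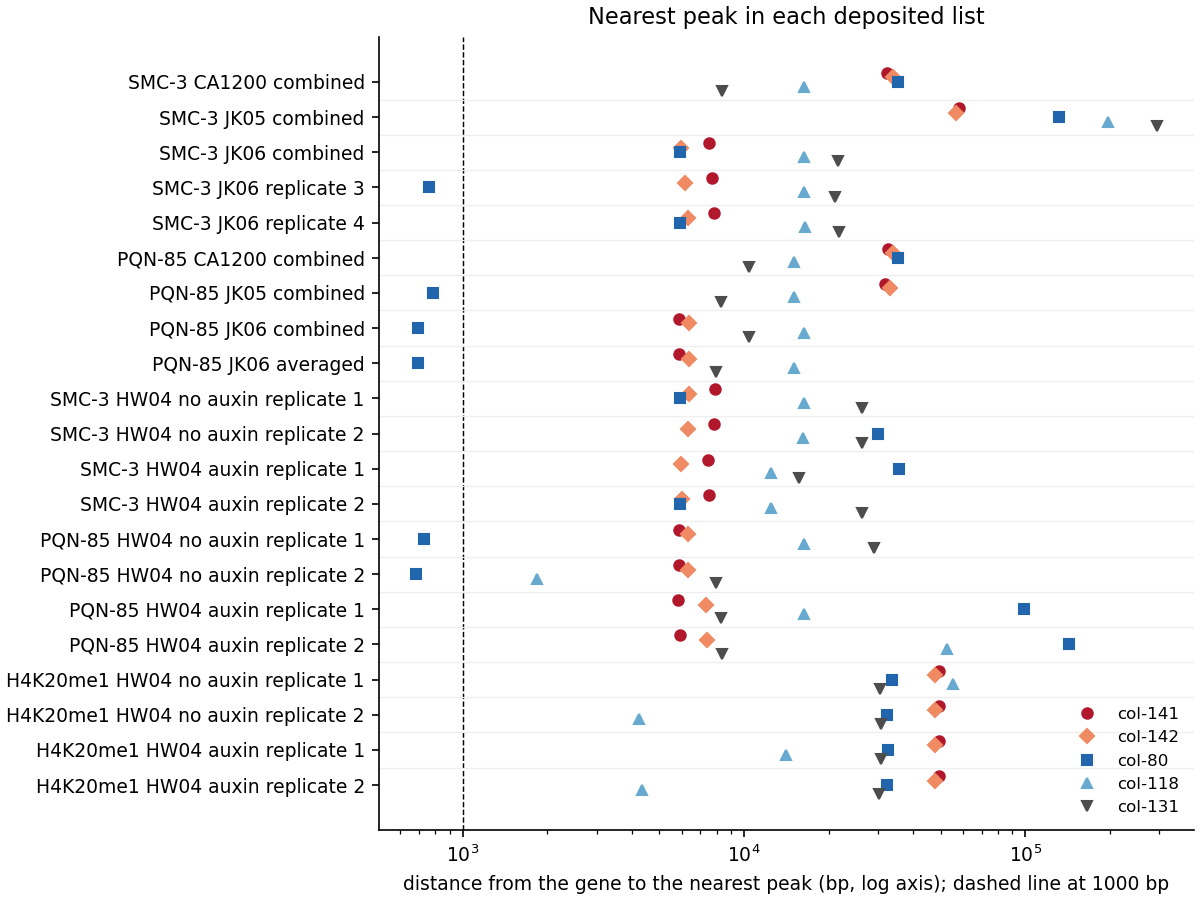
The distance from each of the 5 genes to the nearest peak (x axis, bp, log scale) is shown for each of the 21 peak lists (y axis), 1 symbol per gene, with a dashed line at 1000 bp. The symbols left of the line are those of col-80, in 6 lists, at 685 to 782 bp. The combined and averaged PQN-85 lists of JK06 share the same call there.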

How the data were processed

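For the RNA-seq of 2 libraries per strain, DESeq2 1.30.0, HISAT2 2.2.1, Cufflinks 2.2.1 and HTSeq 0.13.5 are named in the submitters' processing notes. The ChIP-seq tools in the same notes are MACS2 2.1.1, MACS3, Bowtie2 2.4.2, deepTools 3.5.0 and SAMtools 1.11. Per the file headers, each RNA table of the authors gives a mean normalized count (a signal over both strains), a log2 fold change with its standard error, a Wald statistic (a score), and a p-value before and after adjustment. The deposited peak lists hold a score, the fold enrichment (a ratio over background) and the −log10 q value, all set by the authors. Depth is unknown, so the standard errors are the measure of precision.

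Mean levels per strain assume equal weight of both strains: control = 2 × mean / (1 + fold change). On simulated data the formula was checked only as the inverse of a plain ratio of strain means, so its use on fitted fold changes was not tested. The peak distances were also checked on simulated data. Python 3.11.15 and pandas 2.3.3 were used. Symbols were matched for 17777 of 18128 and 17941 of 18308 genes. The members and the gene lists were chosen with earlier results of these data known. Named genes were the 5 members, their nearest gene on each side, called col genes, the 3 genes most like col-141 and col-131, and from each list the called gene or the one with the smallest p. dph-2, col-3, col-79, col-117, col-143, col-150, col-168, scl-2 and scl-3 were named after their position or value was seen. Other thresholds, distances and lists were tried as alternatives. Promoter and protein sequences, Hi-C and other ChIP targets were not analysed here.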

Additional observations from a re-analysis of the deposited data

How the results depend on the processing

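Over 20 results and 79 alternatives, 71 left the result as it was or within 1.5 times, 8 moved it and 0 reversed it. Part of the 71 could not have moved, so the tally is no measure of robustness. A count of 0 peaks within 1000 bp stays 0 at 500 bp, for overlap or with a score minimum. The WAPL-1 calls with an adjusted p under 0.01 or 0.1 were fixed at 0, since the smallest adjusted p was 0.793. Counts of called genes depend on the threshold: with an adjusted p under 0.01 in the authors' deposited table, 2 col genes were lower after SMC-3 depletion, in place of 6. The other alternatives for RNA calls (adjusted p under 0.1, p adjusted anew over genes whose mean normalized count reached 10) kept all counts within 1.5 times, and medians moved by less than the median SE. The peak near col-80 is the one peak result that moved. Within 500 bp, 0 of the 5 genes had a PQN-85 peak in JK05, in JK06 and in HW04 without auxin, and 0 overlapped one in JK05 or JK06. With a score of at least 100 asked of both replicates, PQN-85 in HW04 without auxin had 0. As a separate alternative with no score minimum, the single SMC-3 list of replicate 3 of JK06 had 1 where the combined set had 0. Leaving out replicate 1 or replicate 2 of HW04 left each count as it was, at 0 or 1. No replicate could be left out of the RNA tables or combined sets, which hold no values per library. No paired analysis was possible because the RNA columns carry no replicate and the peak counts come from no test. The unknown depth, 2 libraries per strain and the shared control limit all RNA values.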
